A study of Mus musculus with 6 samples.

Results

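The unfolded protein and ATF4 stress response was followed through 33 genes in mouse regulatory T cells induced in culture (iTreg) and exposed to prostaglandin E2 (PGE2). The 33 genes were taken by name from a list of the response and kept where the annotated gene averaged at least 1 FPKM (fragments counted per length of transcript and per size of library) over all libraries. All 33 passed, out of 12113 genes that passed among 47643 gene IDs. Chac1 alone had a PGE2 mean below that limit, at 0.979 FPKM, and passed through its vehicle level. The genes were divided by role into 11 genes of the ATF4 branch, 4 genes for the sensors and Xbp1, 14 ER chaperones and folding factors, and 4 genes of ER degradation.

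There were 3 libraries of cells given 100 nM PGE2 for 6 h and 3 libraries of cells given vehicle (DMSO) for 6 h. Both groups were splenic CD4+ T cells of C57BL/6 mice that carry Foxp3-DTR/EGFP, a reporter that also places a diphtheria toxin receptor in Foxp3+ cells, so the controls carry the same allele. The cells had been held for 2 days on antibody to CD3 with antibody to CD28 and TGF-β, and Foxp3+ cells were sorted by their fluorescence after treatment. No label says if the replicates are different animals or cultures, and p-values therefore reflect the spread between these samples alone, which may be technical. The labels give no age for the mice.

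The unfolded protein response is the programme by which a cell adjusts protein folding in the endoplasmic reticulum (ER) to load. PERK (Eif2ak3), IRE1 (Ern1) and ATF6 sense unfolded protein in the ER membrane. PERK phosphorylates eIF2, which lowers general translation and raises translation of ATF4, whose targets serve amino acid supply and, under lasting stress, cell death. IRE1 splices Xbp1 mRNA, and XBP1 and ATF6 induce chaperones and the degradation machinery of the ER. Amino acid shortage reaches ATF4 by another eIF2 kinase, GCN2, without the ER, and T cells raise both arms when they are activated and grow.

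Sequencing depth, worked out from how coverage relates to FPKM, was 4.542 to 5.446 gigabases in PGE2 libraries and 3.996 to 5.121 gigabases in vehicle libraries. Foxp3 was at 91.1 to 136 FPKM in PGE2 libraries and 75.4 to 101 FPKM in vehicle libraries, and Cd3e at 148 to 161 and 144 to 148 FPKM. Because plasma cells hold much of this response, their markers were read as well. Jchain, Sdc1, Mzb1 and Tnfrsf17 were at or below 0.299 FPKM in every library, and the B cell genes Ms4a1 and Pax5 at or below 0.036 FPKM. Others on the list were higher. Cd79b was at 3.02 to 3.63 FPKM with PGE2 and 3.42 to 5.32 FPKM with vehicle. Igkc was at 2.29 to 7.57 and 1.46 to 6.35 FPKM, and Ighm at 81 to 119 and 126 to 223 FPKM. Over all 12 genes of the B and plasma cell list the summed level was 87.8 to 131 FPKM with PGE2 and 132 to 235 FPKM with vehicle, most of it Ighm. The part of this difference in the results below was not tested. The 11 myeloid markers summed to 34.4 to 57.2 FPKM with PGE2 and 30.9 to 54 FPKM with vehicle, most of it Cd74, which activated T cells can also express. Cd68 was at 2.64 to 4.04 FPKM with PGE2 and 1.74 to 4.59 FPKM with vehicle, Itgam was at or below 0.392 FPKM, and S100a8 and S100a9 were listed at 0 in all 6 libraries. The CD8 and NK cell markers summed to 49.5 to 52.5 FPKM with PGE2 and 59.4 to 63.1 FPKM with vehicle, most of it Nkg7. Over all 6 libraries Cd8b1 was at 4.68 to 5.88 FPKM, Klrd1 at 0.627 to 4.5 FPKM and Gzma at 0.841 to 1.39 FPKM. Cd8a was at or below 0.868 FPKM.

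No gene of the response passed the test over all genes (limma on log2(FPKM + 1) with Benjamini-Hochberg adjustment, threshold 0.05). In simulated data this test recovered 35% of 1.5-fold changes, so a missing call does not show that a gene was unchanged. Of the 33 genes 0 rose and 0 fell, where 0.57% of all tested genes rose and 0.239% fell. At an unadjusted p under 0.05, 2 of the 33 genes were higher and 5 were lower, where 5.46% of all tested genes were higher and 7.59% lower. The 2 were Edem1 and Pdia4, and the 5 were Asns, Chac1, Sesn2, Canx and Herpud1. With the replicate number as a block, 1 gene rose (Edem1) and 3 fell (Asns, Chac1 and Sesn2), where 1.77% of all tested genes rose and 1.49% fell. All 3 that fell belong to the ATF4 branch, and Chac1 among them passed the level filter only through its vehicle libraries. Pairing by number was inferred from correlations between these libraries, highest between the libraries numbered 3 (0.53). PGE2 replicate 1 correlated with vehicle replicate 2 at 0.27 and with vehicle replicate 1 at 0.23. The block results and the comparisons within replicate numbers depend on this pairing. The medians of the log2 change were -0.14 in the ATF4 branch, 0.07 in the sensors with Xbp1, 0 in the ER chaperones and 0.02 in ER degradation, against -0.03 over all tested genes. The median of the ATF4 branch was -0.45 without vehicle replicate 3, -0.2 to -0.17 without any other single library, and -0.1 with the block without number 1. With a filter at a mean of 5 FPKM, which leaves out Chac1, it was -0.11.

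**Figure D1:**
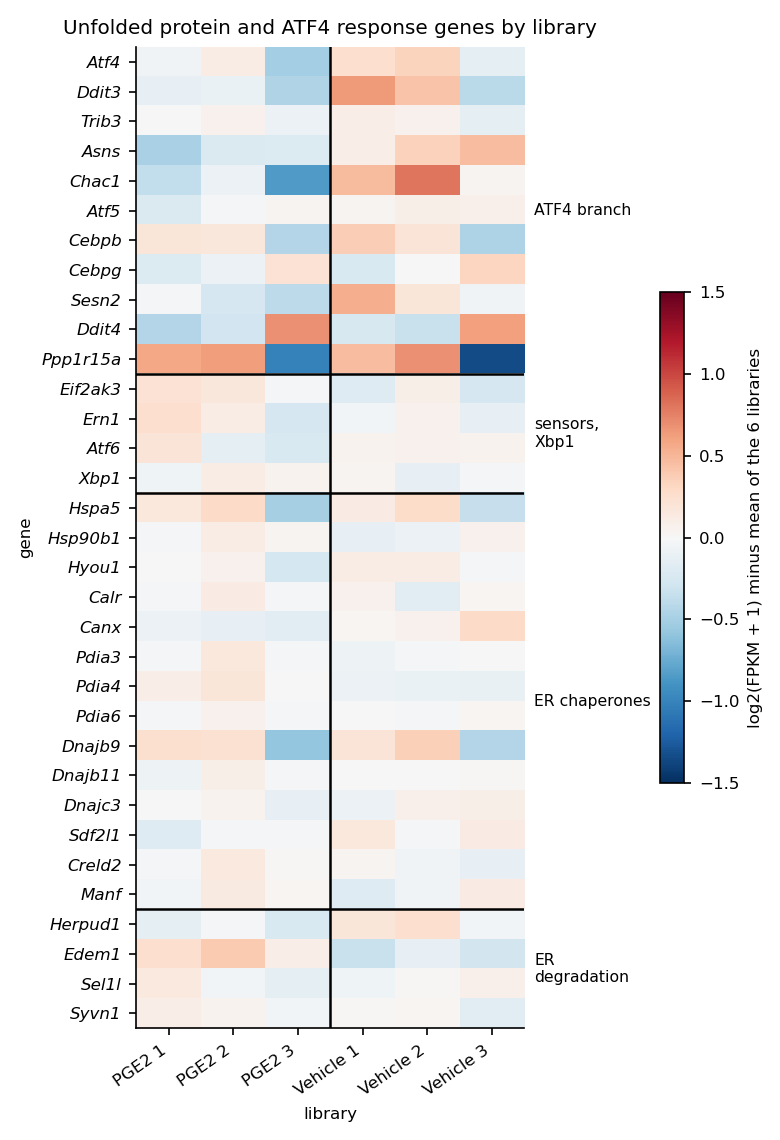
Level of each of the 33 genes (rows, grouped by role) in each library (columns, PGE2 left of vehicle), as log2(FPKM + 1) minus the mean of the 6 libraries. Asns and Chac1 are lower in every PGE2 library than in any vehicle library, Edem1 is higher, and Ppp1r15a and Ddit4 set both libraries numbered 3 apart from the rest.

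In the ATF4 branch 3 of the 11 genes were lower with PGE2 at an unadjusted p under 0.05, where 7.59% of all tested genes were. The 3 include Chac1, which passed the level filter through its vehicle level. The other 2 lower genes, Canx and Herpud1, belong to the ER groups described further on. Asns, the asparagine synthetase that makes asparagine from aspartate and a classical ATF4 target, was at 9.39, 11.5 and 11.6 FPKM in PGE2 replicates 1, 2 and 3, against 14.5, 17.4 and 19 FPKM in vehicle replicates 1, 2 and 3. The groups did not overlap, and the highest PGE2 library stayed below the lowest vehicle library. The mean was 10.8 ± 1.24 FPKM with PGE2 and 16.9 ± 2.29 FPKM with vehicle (SD, n = 3 each), a ratio of 0.64. Its log2 change of -0.6 (SE 0.13) gave adjusted p = 0.095 with limma and adjusted p = 0.017 with the replicate block. Within the replicate numbers 1, 2 and 3 the ratio of PGE2 to vehicle was 0.65, 0.66 and 0.61, and these ratios depend on pairing by number. Asns (ENSMUSG00000029752.12) lies on chromosome 6 from 7675169 to 7693254 on the minus strand in the mm10 coordinates of the files, where the annotation has a protein-coding gene.

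Chac1, a gamma-glutamylcyclotransferase that breaks down glutathione and is induced through ATF4 and CHOP, had the ratio farthest from 1 among the 33 genes. It was at 1.03, 1.46 and 0.45 FPKM in the PGE2 libraries, against 2.64, 3.58 and 1.69 FPKM in the vehicle libraries. The groups did not overlap, although PGE2 replicate 2 and vehicle replicate 3 lay close, and the level was low in all 6 libraries. The means were 0.979 ± 0.508 FPKM with PGE2 and 2.64 ± 0.942 FPKM with vehicle (SD, n = 3 each), a ratio of 0.37, while the log2 change on the log2(FPKM + 1) scale was -0.88 (SE 0.25). That scale understates the change of so low a gene, and a pseudocount of 0.1 gave -1.41. The adjusted p was 0.2 with limma and 0.016 with the replicate block, and the ratio within replicate numbers was 0.39, 0.41 and 0.27. Chac1 (ENSMUSG00000027313.3) lies on chromosome 2 from 119351229 to 119354381 on the plus strand.

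Sesn2, a sestrin that restrains mTORC1 and senses leucine, was at 20.7, 17.4 and 15.7 FPKM with PGE2, against 31, 24 and 20.2 FPKM with vehicle. The groups overlapped, since PGE2 replicate 1 lay just above vehicle replicate 3, while within each replicate number the PGE2 library was the lower one. Its log2 change was -0.45 (SE 0.17), with adjusted p = 0.31 by limma and 0.039 with the block. Without number 1 the block kept all 3 of these genes and Edem1 past the threshold. That setting called more genes of every kind, so these calls are no separate check. Over all tested genes 524 rose and 439 fell there, against 215 and 180 with the block of all libraries. Without number 2 the adjusted p with the block was 0.072 for Asns, 0.064 for Chac1 and 0.18 for Sesn2, and without number 3 it was 0.063, 0.059 and 0.079.

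Atf4 itself, the factor that gives the branch its name and whose activity is set mainly by translation, was at 129, 145 and 93.9 FPKM with PGE2, against 160, 169 and 121 FPKM with vehicle. The PGE2 library was lower within each replicate number, and the groups overlapped. The means were 123 ± 25.9 FPKM with PGE2 and 150 ± 25.8 FPKM with vehicle (SD, n = 3 each), and the log2 change of -0.3 had a 95% interval of -0.74 to 0.15 (adjusted p = 0.58 with limma, 0.093 with the block). Ddit3, which encodes CHOP, the factor of ER stress that can lead to cell death, was at 27.4, 27.8 and 21.6 FPKM with PGE2, against 47, 40.6 and 22.3 FPKM with vehicle. Its PGE2 libraries were lower in numbers 1 and 2, with ratios of 0.58 and 0.69, whereas number 3 gave a ratio of 0.97. Its log2 change was -0.44 (95% interval -1.05 to 0.16, adjusted p = 0.55 with limma, 0.15 with the block), and leaving out 1 library moved it between -0.76 (without vehicle replicate 3) and -0.23 (without vehicle replicate 1). Ddit3 shares 68 bases with Mars on the opposite strand, and the sources used here do not say whether the counting used strand.

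**Figure D2:**
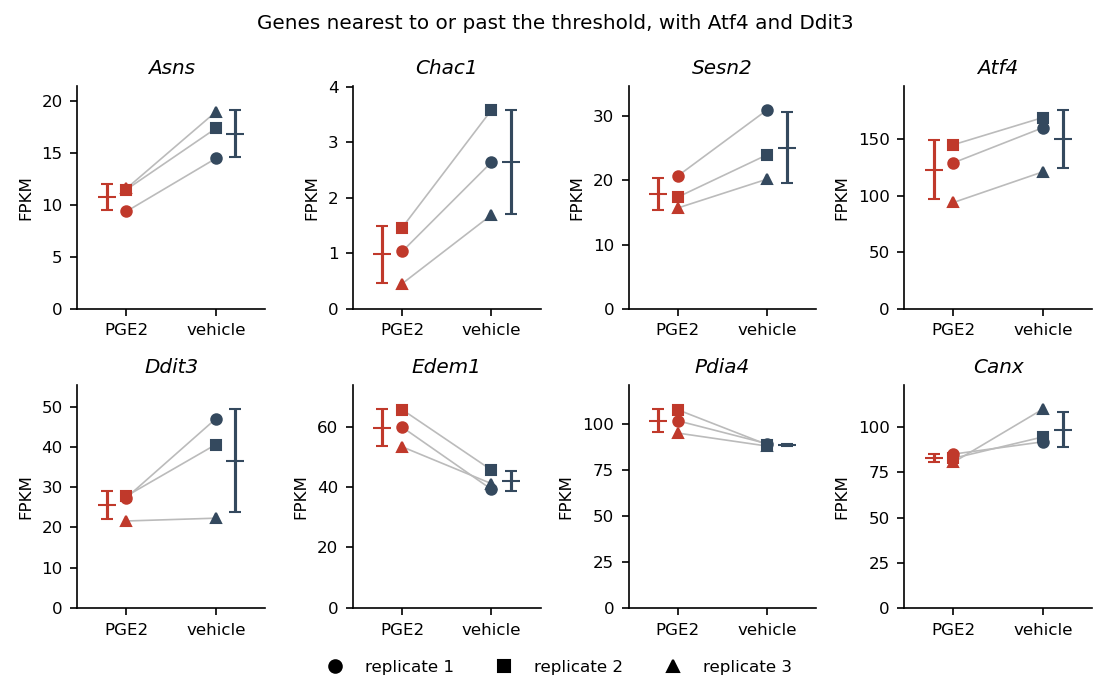
FPKM (vertical axis from 0) of 8 genes in PGE2 libraries (left, red) and vehicle libraries (right, dark); symbols give the replicate number, grey lines join libraries of 1 number, and bars give mean ± SD (n = 3 each). For Asns, Chac1, Sesn2, Atf4 and Ddit3 all 3 lines lie lower at PGE2, for Edem1 and Pdia4 higher, and for Ddit3 the line of number 3 is nearly flat.

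The remaining genes of the branch did not pass either test. Trib3, a pseudokinase that binds ATF4 and holds it back, was at 15.1, 15.8 and 14.2 FPKM with PGE2, against 16.2, 15.9 and 13.6 FPKM with vehicle, with a log2 change of -0.02 (95% interval -0.25 to 0.21). Atf5, a factor related to ATF4, averaged 5.52 ± 0.606 FPKM with PGE2 and 6.17 ± 0.139 FPKM with vehicle (SD, n = 3 each). Cebpg, a partner of ATF4 in heterodimers, averaged 8.24 ± 1.42 FPKM with PGE2 and 8.66 ± 1.91 FPKM with vehicle (SD, n = 3 each), and the sign of its log2 change turned from -0.06 in FPKM to 0.03 in coverage. Atf5 shares 571 bases with Nup62 on the opposite strand, which was at 46.2 FPKM on average, so that its own low value carries this limit. In all, 10 of the 11 genes of the branch had a lower mean on the log scale with PGE2, where 56.7% of all tested genes did. Within replicate numbers 6 of the 11 were lower in all 3, namely Atf4, Ddit3, Asns, Chac1, Atf5 and Sesn2, and 0 were higher in all 3. Among all tested genes 24.5% were lower in all 3 numbers and 17.7% were higher. The counts of 10 and 6 include Chac1, which passed the level filter through its vehicle level.

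Ppp1r15a, Ddit4 and Cebpb differed more between replicate numbers than between treatments. Ppp1r15a encodes GADD34, the phosphatase subunit that reverses eIF2 phosphorylation. It was at 30.6, 31.7 and 9.55 FPKM in PGE2 replicates 1, 2 and 3, against 28.2, 33.2 and 7.38 FPKM in vehicle replicates 1, 2 and 3. Replicate 3 stood at 0.31 times the mean of the other two with PGE2 and at 0.24 times with vehicle, while the log2 change between treatments was 0.13 with a 95% interval of -1.33 to 1.58. Ddit4, which encodes the mTORC1 inhibitor REDD1, went the other way. It was at 46, 51.2 and 101 FPKM with PGE2, against 52.9, 49.3 and 96.8 FPKM with vehicle, so that replicate 3 stood at 2.07 and 1.89 times the mean of the other two. Cebpb, a bZIP factor that forms dimers with ATF4 and CHOP, was at 10.6, 10.5 and 6.55 FPKM with PGE2, against 12.3, 10.7 and 6.45 FPKM with vehicle. It shares 908 bases with Tmem189 on the opposite strand, which averaged 26 FPKM.

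A gene was counted as set apart in number 3 where that library differed from both others by over 0.5 on the log2(FPKM + 1) scale, in the same direction in both groups. Among the 33 genes, 3 were set apart downward (Ppp1r15a, Cebpb and the ER gene Dnajb9), where 0.974% of all tested genes were, and 1 upward (Ddit4), where 1.4% were. Hspa5 came near, with replicate 3 at 0.61 and 0.68 times the mean of the other two. Both libraries numbered 3 also had the lowest depth of their group, and the part of depth in these values was not tested. Leaving both out moved the median of the ATF4 branch to -0.19, and left the log2 changes of Asns, Chac1 and Sesn2 at -0.57, -0.87 and -0.51.

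**Figure D3:**
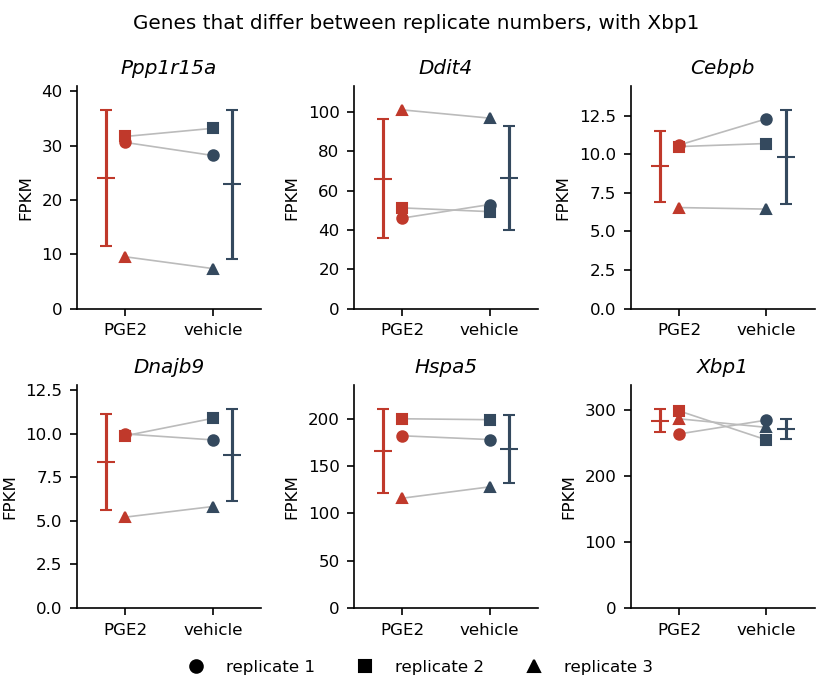
FPKM (vertical axis from 0) of Ppp1r15a, Ddit4, Cebpb, Dnajb9, Hspa5 and, for comparison, Xbp1 in PGE2 libraries (left, red) and vehicle libraries (right, dark), with symbols and bars as for the other genes (mean ± SD, n = 3 each). Replicate 3 (triangle) lies apart in both groups in each panel but that of Xbp1, downward except for Ddit4.

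The stretches of promoter that hold ATF4-type or cAMP-type letters are shown because ATF4 acts through the first and PGE2 raises cAMP through EP2 and EP4. The RefSeq windows (GRCm38.p6, 250 bases before to 50 after a start, 30 of the 33 genes matched, no window for Manf, Hyou1 and Atf6) were searched on both strands. The C/EBP-ATF response element was searched as TGATGNAA and the full cAMP response element as TGACGTCA. TGATGNAA was found for Asns, Chac1 and Trib3 in the ATF4 branch and for Herpud1 in ER degradation. It was in 13.3% of the 30 genes and in 3.97% of all 32851 windows. TGACGTCA was found for Ppp1r15a alone among the 30 genes, and in 1.79% of all windows. The sequences run 5′ to 3′ on the strand of the gene, end at or before the base ahead of the start, and carry the motif in capitals. A match describes letters and does not show a bound site.
Asns, TGATGNAA on the gene's strand, chr6:7693210-7693247: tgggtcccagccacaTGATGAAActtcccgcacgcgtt
Chac1, reverse complement, chr2:119351034-119351071: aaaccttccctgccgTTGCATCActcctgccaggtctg
Herpud1, reverse complement, chr8:94386302-94386339: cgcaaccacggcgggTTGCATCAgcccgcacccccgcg
Ppp1r15a, TGACGTCA, chr7:45526269-45526295: accccgcctctccggTGACGTCAgcac

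Of the 4 genes with TGATGNAA, Asns, Chac1 and Herpud1 were lower with PGE2 at an unadjusted p under 0.05, and Trib3 was not (log2 change -0.02). Of all tested genes 7.59% were lower at that limit. The share among all genes with TGATGNAA was not computed, and a link between motif and change was not tested. Ppp1r15a, the gene with TGACGTCA, was not lower or higher at that limit. Trib3 has its match after the start, where no sequence is printed, and its values and interval are given above. Atf4, Ddit3 and Sesn2 hold neither motif in this window.

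None of the 4 genes for the sensors and Xbp1 passed the test, with or without the block, and 0 were at an unadjusted p under 0.05 in the fit without it. The shares of all tested genes at that limit were 5.46% higher and 7.59% lower. Eif2ak3, which encodes PERK, was at 11.5, 11.1 and 9.6 FPKM with PGE2, against 8.39, 10.4 and 8.06 FPKM with vehicle. It was higher within each replicate number, the groups overlapped, and its log2 change of 0.25 (SE 0.12) gave adjusted p = 0.45 with limma and 0.22 with the block. Ern1, which encodes IRE1, and Atf6 were low throughout, with means of 2.1 ± 0.535 and 2.47 ± 0.55 FPKM with PGE2 and 1.92 ± 0.184 and 2.73 ± 0.0104 FPKM with vehicle (SD, n = 3 each). The sign for Ern1 depended on the entry used, with 0.07 for the annotated gene and -0.21 for the assembled locus.

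Xbp1, the factor that IRE1 activates by splicing, was the highest of the group and the next highest of all 33 genes after Calr. It was at 264, 299 and 287 FPKM with PGE2, against 285, 255 and 274 FPKM with vehicle. The groups overlapped, the log2 change was 0.06 with a 95% interval of -0.16 to 0.28 (adjusted p = 0.86 with limma), and coverage gave 0.12. These tables hold whole genes, so spliced and unspliced Xbp1 were not told apart.

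**Figure D4:**
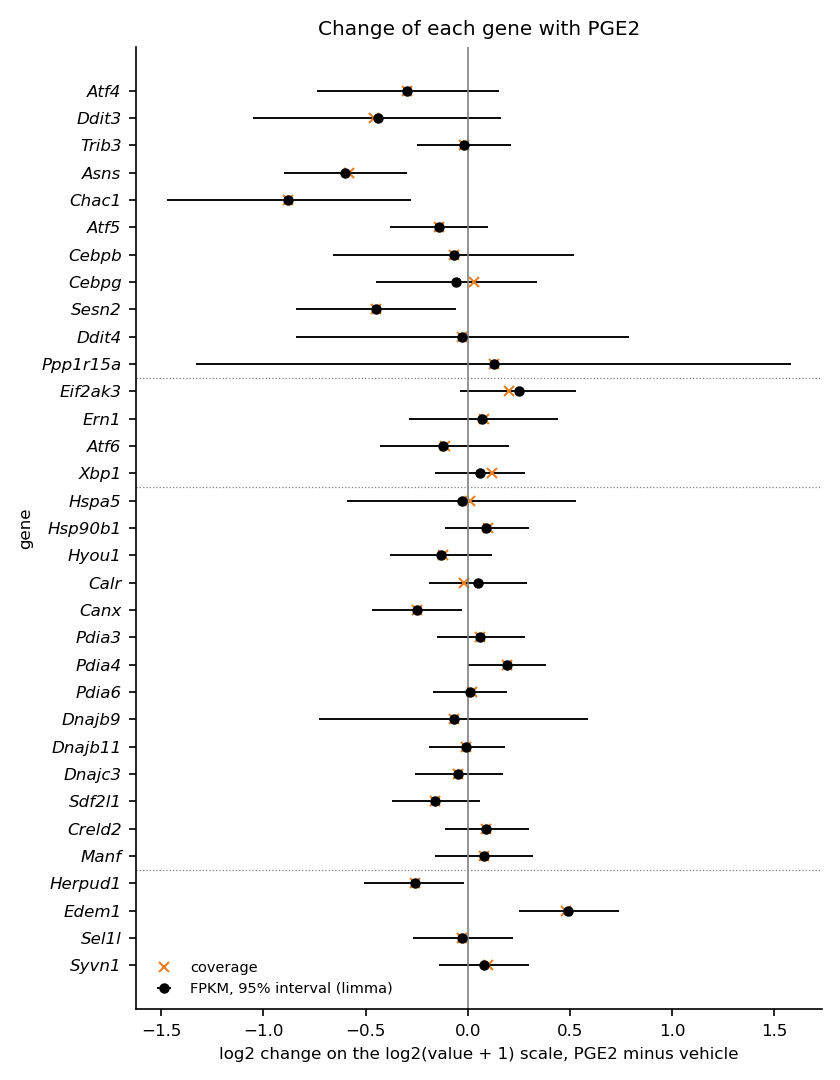
Log2 change of each gene on the log2(value + 1) scale, PGE2 minus vehicle, with genes grouped by role from the ATF4 branch at the top to ER degradation at the bottom. Changes are from FPKM with the 95% interval (black) and from read coverage scaled to FPKM in each library (orange cross). Intervals of Asns, Chac1, Sesn2, Canx and Herpud1 lie below 0 and those of Edem1 and Pdia4 at or above it, before any adjustment; the interval of Ppp1r15a is the widest.

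Of the 14 ER chaperones and folding factors 0 passed the test, with or without the block. Without the block 0.57% of all tested genes rose and 0.239% fell, and with it 1.77% rose and 1.49% fell. The median level of the 14 genes was 63.9 FPKM with PGE2 and 63.8 FPKM with vehicle, against 9.74 and 10.1 FPKM over all tested genes. Calr, calreticulin, a lectin chaperone of the ER lumen, was the highest at 341, 375 and 338 FPKM with PGE2, against 361, 305 and 350 FPKM with vehicle, with a log2 change of 0.05 in FPKM and -0.02 in coverage. Next in vehicle came Pdia3 at 204 ± 5.63 FPKM, Hsp90b1 at 175 ± 11.6 FPKM and Hspa5 at 168 ± 36.4 FPKM (SD, n = 3), of which Hsp90b1 and Hspa5 do not differ beyond their spread. Pdia3 is a disulfide isomerase that works with the lectin chaperones, and Hsp90b1 encodes GRP94.

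Hspa5, which encodes BiP, the chaperone that holds the sensors inactive, was at 182, 200 and 116 FPKM with PGE2, against 178, 199 and 128 FPKM with vehicle. Its ratio within replicate numbers was 1.02, 1.01 and 0.91, so that the spread between numbers was far wider than the difference between treatments. The log2 change was -0.03 with a 95% interval of -0.59 to 0.53 (adjusted p = 0.97 with limma), and it was 0.01 in coverage and 0.02 without both libraries numbered 3. Dnajb9, a J-domain partner of BiP, was at 10, 9.9 and 5.22 FPKM with PGE2, against 9.66, 10.9 and 5.83 FPKM with vehicle, the same pattern at a lower level.

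At an unadjusted p under 0.05, 1 of the 14 genes was lower (Canx) and 1 was higher (Pdia4). Of all tested genes 7.59% were lower and 5.46% higher at that limit. Canx, calnexin, the membrane-bound lectin chaperone, was at 85.1, 82.8 and 80.6 FPKM with PGE2, against 91.9, 94.6 and 110 FPKM with vehicle. Pdia4, a disulfide isomerase also called ERp72, was at 102, 108 and 95.3 FPKM with PGE2, against 89.5, 89 and 88.2 FPKM with vehicle. Neither gene had overlapping groups, and their log2 changes were -0.25 (SE 0.09, adjusted p = 0.32 with limma) and 0.19 (SE 0.08, adjusted p = 0.38), also without a call under the block (0.2 and 0.22). Over the 33 genes 2 were higher without overlap (Edem1 and Pdia4) and 3 lower (Asns, Canx and Chac1), where 7.81% of all tested genes were higher and 11.9% lower.

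The other 12 chaperones and folding factors had log2 changes from -0.16 (Sdf2l1) to 0.09 (Hsp90b1 and Creld2). Pdia6, a disulfide isomerase that damps the sensors, averaged 68.2 ± 2.79 FPKM with PGE2 and 67.8 ± 1.36 FPKM with vehicle (SD, n = 3 each), with a 95% interval of -0.17 to 0.19 for the log2 change. Dnajb11, a BiP partner in the ER lumen, averaged 59.6 ± 3.69 FPKM with PGE2 and 59.8 ± 0.56 FPKM with vehicle (SD, n = 3 each), with an interval of -0.19 to 0.18. Sdf2l1, which acts with BiP and Dnajb11, averaged 46.9 ± 3.13 FPKM with PGE2 and 52.5 ± 3.63 FPKM with vehicle (SD, n = 3 each). Manf, a secreted factor that binds BiP, averaged 48.9 ± 3.08 FPKM with PGE2 and 46.4 ± 5.18 FPKM with vehicle (SD, n = 3 each). Its annotated span holds Rbm15b on the same strand and part of Vprbp on the other, and its log2 change was 0.08 for the annotated gene and 0.68 for the assembled locus. Hyou1 (also called GRP170), Dnajc3 (P58IPK, which inhibits PERK) and Creld2 gave log2 changes of -0.13, -0.05 and 0.09.

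Several chaperone promoters hold one element. The ER stress response element, CCAAT and CCACG with 9 bases of any kind between, which ATF6 binds together with the CCAAT factor NF-Y, was found in 7 of the 12 chaperone genes with a window (58.3%), in 1 of 4 ER degradation genes, in 0 of the 11 genes of the ATF4 branch and in 0.119% of all 32851 windows. Pdia3, Pdia4, Dnajb9, Dnajb11 and Sdf2l1 do not hold it in the window. The element contains CCAAT and CCACG, which were in 37.4% and 32.8% of all windows on their own. Hsp90b1 holds it 2 times. These genes are classical targets of the response, so the share describes the group and was not tested. The stretches are shown with the element in capitals, 5′ to 3′ on the strand of the gene.
Hspa5, chr2:34772010-34772058: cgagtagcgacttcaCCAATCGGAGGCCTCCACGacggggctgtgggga
Hsp90b1, chr10:86705518-86705671: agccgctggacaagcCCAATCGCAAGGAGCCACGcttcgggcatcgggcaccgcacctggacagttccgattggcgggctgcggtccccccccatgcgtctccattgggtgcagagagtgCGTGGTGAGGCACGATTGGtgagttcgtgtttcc
Calr, reverse complement, chr8:84847060-84847108: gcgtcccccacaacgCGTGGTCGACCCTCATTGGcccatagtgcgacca
Canx, chr11:50325785-50325833: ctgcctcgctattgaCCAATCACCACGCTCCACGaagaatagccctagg
Pdia6, chr12:17266476-17266524: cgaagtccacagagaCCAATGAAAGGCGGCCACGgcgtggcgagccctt
Dnajc3, chr14:118937812-118937860: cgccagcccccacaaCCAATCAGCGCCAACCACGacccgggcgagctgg
Creld2, reverse complement, chr15:88819505-88819553: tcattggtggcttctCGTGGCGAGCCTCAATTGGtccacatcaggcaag
Syvn1, chr19:6046517-6046565: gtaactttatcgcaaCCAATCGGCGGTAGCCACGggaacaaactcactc

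Among the 8 genes with the element, Canx was lower with PGE2 at an unadjusted p under 0.05 and the others were on neither side. Of all tested genes 5.46% were higher and 7.59% lower at that limit, and a link with the element was not tested. Pdia4, Edem1 and Herpud1, which were also past that limit, do not hold the element with its 9-base spacer in the window. Each of them holds CCAAT and CCACG there in another arrangement, and such arrangements were not searched for as elements. The unfolded protein response element TGACGTGG was in 0 of the 30 genes and in 0.676% of all windows.

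In ER degradation, Edem1 and Herpud1 lay on opposite sides. Edem1, a lectin that directs misfolded glycoproteins to degradation, was at 59.8, 65.6 and 53.3 FPKM with PGE2, against 39.2, 45.6 and 41.1 FPKM with vehicle. Every PGE2 library was above every vehicle library, and the ratio within replicate numbers was 1.52, 1.44 and 1.29. The mean was 59.6 ± 6.16 FPKM with PGE2 and 42 ± 3.29 FPKM with vehicle (SD, n = 3 each), with a log2 change of 0.49 (SE 0.11), adjusted p = 0.095 with limma and 0.03 with the block. With the block its adjusted p was 0.017 without number 1, 0.14 without number 2 and 0.065 without number 3. The fit without number 1 called 524 rises and 439 falls over all tested genes, against 215 and 180 with the block of all libraries. Edem1 (ENSMUSG00000030104.9) lies on chromosome 6 from 108828641 to 108859356 on the plus strand.

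Herpud1, an ER membrane protein that assembles the degradation complex and responds to ER stress, was at 35.9, 38.9 and 33.5 FPKM with PGE2, against 44.9, 47.3 and 38.5 FPKM with vehicle. The groups overlapped only through PGE2 replicate 2 and vehicle replicate 3, and the PGE2 library was the lower one within each number. Its log2 change was -0.26 (SE 0.11, adjusted p = 0.35 with limma, 0.11 with the block). Sel1l and Syvn1, the adaptor and the ubiquitin ligase (HRD1) of that complex, averaged 10.9 ± 1.25 and 14.6 ± 0.771 FPKM with PGE2 and 11.1 ± 0.606 and 13.8 ± 1.16 FPKM with vehicle (SD, n = 3 each). Their log2 changes of -0.03 and 0.08 had 95% intervals of -0.27 to 0.22 and -0.14 to 0.3. In bulk RNA, fewer cells that express a gene and less RNA per cell cannot be told apart, for Asns and Edem1 as for the rest.

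Other targets of ATF4 were read from a list of 32 tested genes that shares none with the 33. Of these 0 rose and 1 fell over all genes, 2 had higher and 12 had lower levels at unadjusted p below 0.05, and with the block 1 rose and 6 fell. Over all tested genes 0.57% rose and 0.239% fell, and 5.46% were higher and 7.59% lower at that limit. With the block 1.77% rose and 1.49% fell. The median log2 change was -0.22, and 25 of the 32 had a lower mean on the log scale, where 56.7% of all tested genes did. Shmt2, the mitochondrial serine hydroxymethyltransferase, fell: it was at 43.1, 50.5 and 44.3 FPKM with PGE2, against 69.4, 72 and 67.6 FPKM with vehicle (log2 change -0.59, SE 0.09, adjusted p = 0.038 with limma). It missed the threshold without each single library, at adjusted p of 0.07 to 0.19.

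With the block Slc7a5, the large neutral amino acid transporter, fell (log2 change -0.6, adjusted p = 0.013), and so did Mars (-0.44, 0.033), Eprs (-0.45, 0.049) and Aars (-0.51, 0.036), which charge tRNA with amino acids. Without the block these 4 were at adjusted p of 0.1 to 0.15. For Aars, coverage gave -0.26 where FPKM gave -0.51. Bbc3, which encodes the death factor PUMA and is also a p53 target, fell with the block (-0.8, adjusted p = 0.038 with the block and 0.17 without). Jdp2, an AP-1 repressor, rose with the block and averaged 12.9 ± 2.17 FPKM with PGE2 and 5.61 ± 1.81 FPKM with vehicle (SD, n = 3 each), with a log2 change of 1.09 in FPKM and 0.67 in coverage (adjusted p = 0.0078 with the block, 0.078 without).

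The rest of the ER machinery lay close to the median of all genes, -0.03. For the counts below, 0.57% of all tested genes rose and 0.239% fell. At an unadjusted p under 0.05, 5.46% were higher and 7.59% lower. Of 26 other ER folding enzymes 0 were called, 0 were higher and 1 (Mogs) was lower at an unadjusted p under 0.05, with a median log2 change of 0.04. Of 31 genes of the translocon and signal peptide machinery 0 were called, 0 were higher and 1 (Srp72) was lower, with a median of 0.02. Of 29 other ER degradation genes 0 were called, 0 were higher and 2 (Ubxn4 and Vcp) were lower, with a median of -0.01. For Vcp, the ATPase that pulls proteins from the ER membrane, the log2 change was -0.49 in FPKM and -0.11 in coverage. Of 12 other sensors and proteases 0 were called, Creb3l2, an ER-anchored factor related to ATF6, was higher (log2 change 0.48), and Bax and Mbtps2 were lower, with a median of -0.01. None of these 4 lists had a call with the block, where 1.77% of all tested genes rose and 1.49% fell.

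**Figure D5:**
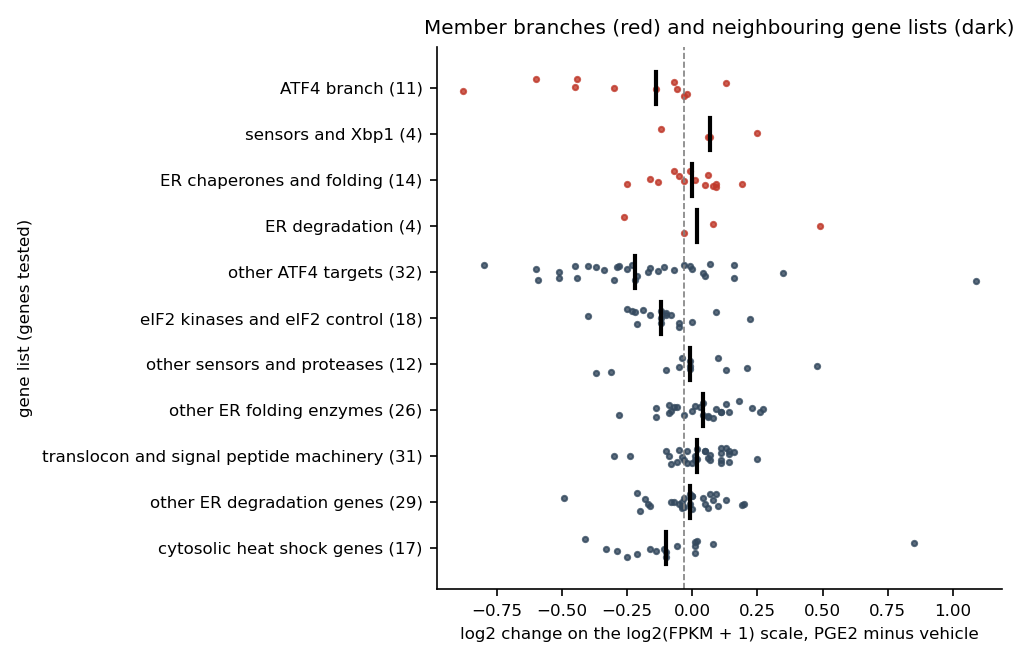
Log2 change of each tested gene on the log2(FPKM + 1) scale, PGE2 minus vehicle, for the 4 groups of the response (red) and 7 neighbouring lists (dark), with black bars at the medians and a dashed line at the median of all tested genes, -0.03. The ATF4 branch (-0.14), other ATF4 targets (-0.22), the eIF2 list (-0.12) and cytosolic heat shock genes (-0.1) lie to the left. The ER lists lie around 0.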

How the data were processed

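The 6 libraries were deposited as 1 gene table each. Per the labels' protocols, RNA came from sorted cells by a column kit and libraries from a stranded kit for mRNA. The tools named in the submitters' processing notes are Trim Galore and HISAT2, with build mm10. For the annotation, versions and quantifier, the status is "not given in the sources used here". The deposited FPKM values are scaled by the authors to length and library size, deposited coverage (a signal) gives average reads per base of the gene, and deposited TPM, listed as a score, was not used. Counts are not at hand, so no counting interval was computed.

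Annotated entries were summed per gene ID, and the 12113 genes averaging 1 FPKM or more were tested as log2(FPKM + 1) with limma 3.58.1 in R 4.3.3 (variance trend, no covariate, two-sided, Benjamini-Hochberg over all tested genes, threshold 0.05). The procedure was tested on simulated data. Of the gene IDs 47224 of 47643 are in GENCODE M21. The members and lists were chosen with earlier results of these data known. All 33 genes could be named. The rule gave values per library to those called, at an unadjusted p under 0.05, without overlap or highest in their group, and to Atf4, Ddit3, Xbp1 and Hspa5. Other lists name called genes and up to 4 with the smallest p. Chosen after values were seen were Slc7a5, Bbc3 and Hspa4, and the values per library of Trib3, Ppp1r15a, Ddit4, Cebpb, Eif2ak3 and Dnajb9.

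Groups and replicate numbers came from the titles. Across genes, deviations from group means had correlations of 0.23, 0.31 and 0.53 for numbers 1, 2 and 3, so the numbers were taken to pair the libraries. PGE2 replicate 1 correlated as well with vehicle replicate 2, at 0.27. The fit with the number as a block is therefore given where it changes a call. Alternatives were median-ratio scaling, coverage, another pseudocount, other filters, no trend, assembled loci and left-out libraries. Coverage was first divided by its library's median ratio of coverage to FPKM over genes with 1 annotated transcript. Of those genes 97.3 to 97.7% had a ratio within 1% of that median, so coverage is no independent check for them. Motifs were searched in RefSeq windows, with Python 3.11.15, and matplotlib 3.10.9 drew the figures.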

Additional observations from a re-analysis of the deposited data

How the results depend on the processing

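The number of libraries, 3 a group, and the low level of Chac1 limit these values. Over all genes 69 rose and 29 fell. The counts were 112 and 47 with coverage, 33 and 12 without a filter, 215 and 180 with the replicate block, and 16 fell without the variance trend. Without both libraries numbered 3, chosen after seeing the data, 44 fell. Leaving out 1 library gave 16 to 53 rises and 4 to 16 falls, and the block without 1 number gave 524, 105 and 75 rises and 439, 46 and 40 falls without numbers 1, 2 and 3, also chosen after seeing the data.

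Of the 33 genes 0 were called under every setting except the block (1 rose, 3 fell) and the block without number 1 (the same 4 genes). The block without number 1 called 524 rises and 439 falls over all genes, against 215 and 180 with all libraries. Higher genes at an unadjusted p under 0.05 numbered 2, and 1 with a mean of at least 5 FPKM, without the trend or with assembled loci. Leaving out 1 library gave 1 to 3 higher and 2 to 6 lower genes, and the block without 1 number 1 to 2 higher and 5 to 7 lower. The shares of all tested genes at that limit, 5.46% higher and 7.59% lower, are from the fit of all libraries without a block. They were not computed for these settings, so these counts cannot be set against a share. The ATF4 median was -0.45 to -0.17 without 1 library, the first without vehicle replicate 3. The chaperone median was -0.04 to 0.08, the last without PGE2 replicate 3. The log2 change of Hspa5, -0.03, turned to 0 with median-ratio scaling, 0.01 with coverage, 0.02 without both libraries numbered 3 (also with the block), and -0.22 to 0.21 without 1 library. Xbp1 turned to -0.02 with the block without number 2. Asns, Chac1, Sesn2, Edem1, Canx, Pdia4 and Herpud1, picked for their unadjusted p in these data, kept their sign under every alternative run. The groups do not overlap for Asns, Chac1, Edem1, Canx and Pdia4, so leaving out libraries could not have turned their sign. The causes were not tested.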

Other observations

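Of the 18 tested genes of eIF2 and its kinases, the step that joins the stress sensors to ATF4, 0 were called by limma, also with the block. Among all tested genes 0.57% rose and 0.239% fell, and with the block 1.77% rose and 1.49% fell. At an unadjusted p under 0.05, 0 were higher and 3 were lower, where 5.46% and 7.59% of all tested genes were, and 16 of the 18 had a lower mean on the log scale, where 56.7% of all tested genes did. The list as a whole was not tested. Eif2b3, a subunit of the exchange factor for eIF2, was at 6.59, 6.6 and 5.88 FPKM with PGE2, against 9.08, 8.8 and 8.13 FPKM with vehicle (log2 change -0.4, SE 0.09, adjusted p = 0.12 with limma), with a change of -0.21 in coverage. Eif2s1, Eif2s2 and Eif2s3x, the 3 subunits of eIF2, gave log2 changes of -0.22, -0.25 and -0.21. The median of the list was -0.12.

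Of 17 tested cytosolic heat shock genes, which serve the folding of proteins outside the ER, 0 were called by limma, also with the block. Among all tested genes 0.57% rose and 0.239% fell, and with the block 1.77% rose and 1.49% fell. At an unadjusted p under 0.05, 0 were higher and 5 were lower, where 5.46% and 7.59% of all tested genes were. The 5 were Hsph1, Fkbp4, Hsf1, Hsp90aa1 and Hspa4. Hsph1, a nucleotide exchange factor of HSP70, averaged 23.6 ± 3.02 FPKM with PGE2 and 31.6 ± 1.4 FPKM with vehicle (SD, n = 3 each), a log2 change of -0.41 (adjusted p = 0.15 with limma). Hsf1, the factor that controls these genes, averaged 14.8 ± 0.572 FPKM with PGE2 and 18.9 ± 2.15 FPKM with vehicle (SD, n = 3 each), a log2 change of -0.33. The median of the list was -0.1, against -0.03 over all tested genes, and the list as a whole was not tested.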
